A study of Mus musculus with 18 samples.

Results

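The genes described here are 8 costimulatory and TNF family surface molecules of regulatory T cells (TR): Icos, Cd28, Tnfrsf1b, Tnfrsf4, Tnfrsf8, Tnfrsf9, Tnfrsf18 and Cd83. They were taken by name from the deposited tables, with earlier results of these data known. They are 8 of 37991 genes in the count table. All 8 were among the 12445 genes with enough counts to be tested. RNA was sequenced from 18 libraries of 500 sorted cells each, from 3 littermate C57BL/6 mice (84, 86 and 87). Every mouse, and so every group, carried the Id3-GFP and the Foxp3-mRFP reporter, which make cells that express Id3 and Foxp3 fluorescent. CD4+ T cells from peripheral lymph nodes or spleen were enriched on magnetic beads and sorted into 3 TR populations, with 3 libraries per population and tissue. These were effector TR without the Id3 reporter (Id3- eTR), effector TR with it and with high CD44 and low CD62L (Id3+ eTR), and central TR with it and with low CD44 and high CD62L (Id3+ cTR). The labels give no CD44 or CD62L gate for Id3- eTR. The series title describes a stepwise differentiation of TR, and the comparisons ask how far each receptor transcript differs at each step and between the tissues.

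T cells need a signal through the antigen receptor together with signals from costimulatory receptors. CD28 and ICOS belong to one immunoglobulin family, bind B7 family ligands on antigen-presenting cells and signal through phosphoinositide 3-kinase. The TNF receptors OX40 (Tnfrsf4), CD30 (Tnfrsf8), 4-1BB (Tnfrsf9), GITR (Tnfrsf18) and TNFR2 (Tnfrsf1b) recruit TRAF adaptors and activate NF-kB, and several of them are well known on TR. CD83 is an immunoglobulin family protein best known from mature dendritic cells and activated lymphocytes. Id3 binds E proteins and keeps them from DNA.

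Library totals ran from 1600782 to 3153325 counts. The TR markers on the list used here, Foxp3, Cd4 and Ctla4 among them, were present in every group, at 3410 to 4760 summed CPM (counts scaled to a common library size) per library. Spleen Id3+ eTR of mouse 84 stood farthest from its group, with a median absolute log2 difference to its partners of 0.49, against 0.234 to 0.343 for the other 17 libraries. Mice 84 and 87 gave the spleen Id3+ cTR libraries with the fewest counts, 1600782 and 1684461. These differed from their partners by 0.287 and 0.279, within the range of the other libraries. All 3 libraries are said below to stand apart, the first by its values and the Id3+ cTR ones by their depth alone. They were kept, and the spleen results were also computed without them. That leaves 1 spleen Id3+ cTR library, which is then assumed to vary like the other groups. In RNA from sorted pools, fewer cells that express a gene and less RNA per cell cannot be told apart.

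Both effector populations had higher levels of most of these receptor transcripts than Id3+ cTR, and none of the 8 was called lower in any comparison with all 18 libraries. In lymph node Id3- eTR, 8 of 8 genes were higher than in lymph node Id3+ cTR, in a comparison that called 12.9% of all genes tested, 8.26% as higher and 4.68% as lower. In spleen Id3- eTR, 5 of 8 were higher than in spleen Id3+ cTR (Icos, Tnfrsf1b, Tnfrsf8, Tnfrsf9 and Cd83), where 12.3% of all genes were called, 7.17% as higher and 5.09% as lower. Id3+ eTR differed from Id3+ cTR in 7 genes in lymph node and in 5 in spleen, all higher, where 5.66% of all genes were called in lymph node (4.2% as higher) and 4.32% in spleen (2.93% as higher). Leaving out 1 library at a time gave 6 to 8 genes in lymph node and 4 to 5 in spleen for Id3- eTR over Id3+ cTR. For Id3+ eTR over Id3+ cTR it gave 4 to 7 genes in lymph node and 3 to 5 in spleen. For Id3+ eTR the lymph node count was 4 without Id3+ eTR of mouse 84, and the spleen count was 3 without Id3+ eTR or without Id3+ cTR of mouse 84. These counts take either direction. Without spleen Id3+ cTR of mouse 86, Tnfrsf1b and Tnfrsf9 were not called (adjusted p = 0.0629 and 0.0789). Tnfrsf18 was then called lower in spleen Id3+ eTR (-0.42 ± 0.11, adjusted p = 0.0342). Icos alone was called between Id3- eTR and Id3+ eTR, in both tissues, where 2.62% of all genes were called in lymph node (1.45% as higher) and 3.28% in spleen (1.53% as higher). A gene was called when its p from the edgeR quasi-likelihood test, adjusted over all genes tested, was under 0.05. The comparisons of Id3- eTR and of Id3+ eTR with Id3+ cTR share the Id3+ cTR libraries. Groups without overlap between their libraries were common over all genes. Against Id3+ cTR, 33.9% (Id3- eTR) and 24.8% (Id3+ eTR) lay apart in lymph node, and 30.5% and 19.8% in spleen, in either direction. Between Id3- eTR and Id3+ eTR, 22% lay apart in lymph node and 18.5% in spleen.

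The median log2 fold change of the 8 genes was 1.52 for Id3- eTR and 1.28 for Id3+ eTR over Id3+ cTR in lymph node, where the median over all genes was 0.00397 and 0.00396. In spleen it was 1.33 and 0.705, with medians over all genes of 0.00227 and 0.0501. Without the 3 libraries that stood apart, 4 genes were called for Id3- eTR and 3 for Id3+ eTR over Id3+ cTR in spleen, and the counts over all genes fell to 730 and 69, against 1526 and 538 with them.

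**Figure D1:**
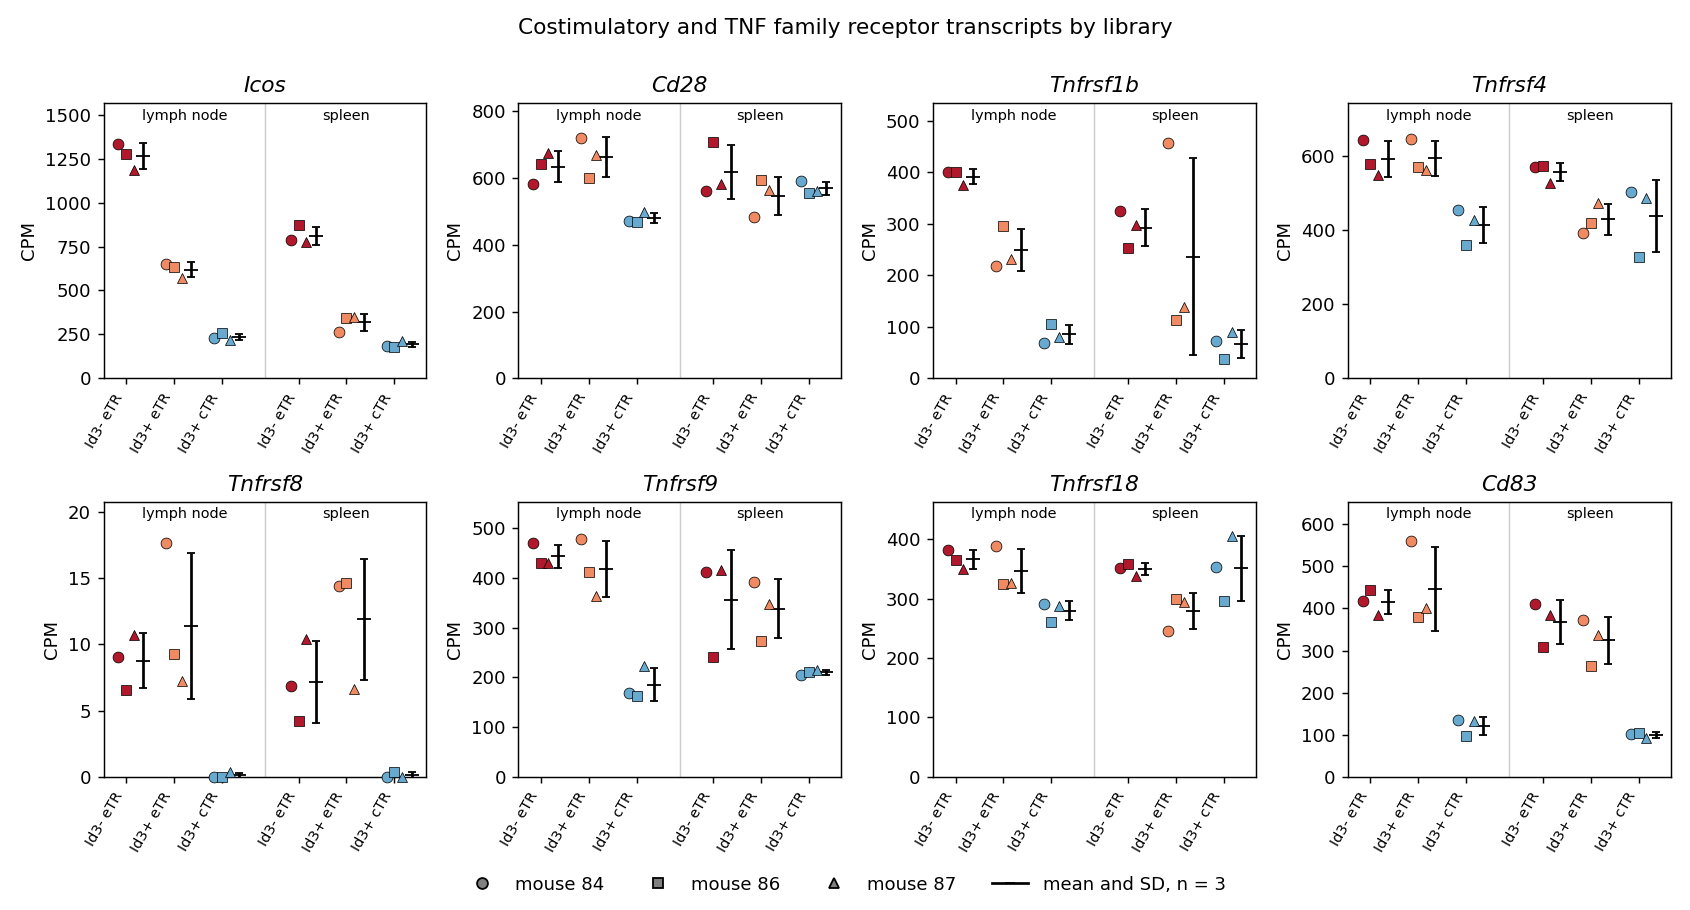
CPM of the 8 genes in each of the 18 libraries; columns are the 3 populations in lymph node (left) and spleen (right), symbols are mice, and bars give the mean and SD of 3 mice. Icos falls into 6 separate levels, from a mean of 1264 CPM in lymph node Id3- eTR to 193 CPM in spleen Id3+ cTR, whereas Cd28, Tnfrsf4 and Tnfrsf18 lie between 468.9 and 719 CPM, 327 and 648 CPM, and 245 and 405 CPM.

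Several of the genes are neighbours in the mouse genome. In the RefSeq table of the GRCm38.p6 assembly, Tnfrsf1b and Tnfrsf8 are next to each other among protein-coding genes, as are Tnfrsf4 and Tnfrsf18, and Ctla4 lies between Cd28 and Icos. The sources used here do not give the build of the deposited counts. RefSeq promoter entries matched 5 of the 8 genes, with 6 entries, since Tnfrsf9 has an upstream and a downstream start. The 250 bases before each start were searched for CAGCTG and CAGGTG, 2 forms of the E-box that E proteins bind, on both strands (CAGCTG reads the same on both, and the forms do not overlap). Shown here, because the sorted populations differ in an inhibitor of E proteins, are the 4 entries with a match, 5′ to 3′ on the strand of the gene, with the match in capitals. They are Tnfrsf1b at chr4:145246871-145247120 (minus strand), Tnfrsf8 at chr4:145315165-145315414 (minus strand), the downstream start of Tnfrsf9 at chr4:150927749-150927998 (plus strand) and Tnfrsf18 at chr4:156026072-156026321 (plus strand).
Tnfrsf1b: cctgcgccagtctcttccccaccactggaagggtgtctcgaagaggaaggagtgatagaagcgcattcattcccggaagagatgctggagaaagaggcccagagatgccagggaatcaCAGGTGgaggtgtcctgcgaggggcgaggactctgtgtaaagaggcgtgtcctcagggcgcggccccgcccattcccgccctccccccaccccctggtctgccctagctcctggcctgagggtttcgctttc
Tnfrsf8: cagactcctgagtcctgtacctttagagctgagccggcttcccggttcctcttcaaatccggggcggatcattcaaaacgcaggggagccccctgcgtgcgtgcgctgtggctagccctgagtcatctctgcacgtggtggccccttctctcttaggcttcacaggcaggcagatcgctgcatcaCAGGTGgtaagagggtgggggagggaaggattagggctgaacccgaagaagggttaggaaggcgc
Tnfrsf9 downstream start: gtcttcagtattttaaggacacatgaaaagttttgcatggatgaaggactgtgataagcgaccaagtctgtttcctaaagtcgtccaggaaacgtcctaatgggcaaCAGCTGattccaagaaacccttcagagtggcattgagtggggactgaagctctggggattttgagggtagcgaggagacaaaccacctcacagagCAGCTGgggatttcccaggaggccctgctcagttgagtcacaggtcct
Tnfrsf18: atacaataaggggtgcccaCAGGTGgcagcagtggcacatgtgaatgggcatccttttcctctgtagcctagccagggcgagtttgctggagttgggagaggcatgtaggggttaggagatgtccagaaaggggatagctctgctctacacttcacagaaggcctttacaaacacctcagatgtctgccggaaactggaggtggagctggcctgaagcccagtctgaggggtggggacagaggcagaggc
The entries of Tnfrsf1b, Tnfrsf8 and Tnfrsf18 each hold 1 CAGGTG, and the Tnfrsf9 entry holds 2 CAGCTG. The Tnfrsf4 entry and the upstream Tnfrsf9 entry hold neither form in this window. Unlike those of the other entries, the bases after the Tnfrsf4 start were not found in the first part of an annotated transcript. Whether this window is the promoter used by Tnfrsf4 was not tested. Of 32851 RefSeq promoters, 13% hold CAGCTG, 17.2% hold CAGGTG and 27.7% hold either within the same length, so a match is a description of these sequences and not evidence of binding.

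Icos, the inducible costimulator that binds ICOS ligand, differed between all 3 populations in both tissues. In lymph node, mice 84, 86 and 87 had 1332, 1278 and 1183 CPM in Id3- eTR, 653, 633 and 569 CPM in Id3+ eTR, and 231, 256 and 221 CPM in Id3+ cTR. In spleen the same mice had 788, 871 and 778 CPM in Id3- eTR, 264, 341 and 349 CPM in Id3+ eTR, and 187, 181 and 211 CPM in Id3+ cTR. The libraries of the 3 populations did not overlap in either tissue, and every mouse kept the same order of populations. Over Id3+ cTR the log2 fold change was 2.42 ± 0.11 (SE; 5.36-fold, adjusted p = 4.09e-10) in lymph node Id3- eTR and 1.39 ± 0.11 (adjusted p = 5.02e-07) in lymph node Id3+ eTR. In spleen it was 2.08 ± 0.11 (4.21-fold, adjusted p = 1.82e-09) for Id3- eTR and 0.72 ± 0.11 (adjusted p = 0.000997) for Id3+ eTR. Id3- eTR exceeded Id3+ eTR by 1.03 ± 0.10 in lymph node (adjusted p = 1.84e-05) and by 1.35 ± 0.11 in spleen (adjusted p = 1.14e-06). These 6 calls were kept in all 23 alternative settings, the one without the 3 libraries included.

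Icos was also the only member called between the tissues. It was higher in lymph node than in spleen in Id3- eTR, by 0.64 ± 0.10 on the log2 scale (adjusted p = 0.0113), and in Id3+ eTR, by 0.96 ± 0.11 (adjusted p = 0.00039). These comparisons called 0.305% and 0.289% of all genes. In Id3+ cTR, 14.6% of all genes had tissues without overlap, in either direction. There the Icos libraries of lymph node, at 221 to 256 CPM, also lay above those of spleen, at 181 to 211 CPM. That difference of 0.29 ± 0.11 did not pass the test (adjusted p = 0.504), and 0.00804% of all genes did. Leaving out lymph node Id3- eTR of mouse 84 gave 0.59 ± 0.11 in Id3- eTR (adjusted p = 0.0575), which is not a call. The 6 group means ran in the order lymph node Id3- eTR (1264 CPM), spleen Id3- eTR (812 CPM), lymph node Id3+ eTR (618 CPM), spleen Id3+ eTR (318 CPM), lymph node Id3+ cTR (236 CPM) and spleen Id3+ cTR (193 CPM). No neighbours in that order overlapped in their libraries, which held for 1 of the 12445 genes tested (0.00804%), counted in any order of the groups, and that gene was Icos. This was counted after its values were seen.

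Cd28, the receptor of CD80 and CD86 that is present on resting T cells, differed far less. In lymph node it had 583, 641 and 674 CPM in Id3- eTR, 719, 600.2 and 669 CPM in Id3+ eTR, and 472, 469 and 498 CPM in Id3+ cTR, in the order of mice 84, 86 and 87. All 6 effector libraries lay above all 3 central ones. Over Id3+ cTR the log2 fold change was 0.40 ± 0.10 for Id3- eTR (adjusted p = 0.0139) and 0.47 ± 0.10 for Id3+ eTR (adjusted p = 0.0092). Without lymph node Id3- eTR of mouse 87 the first was 0.36 ± 0.11 (adjusted p = 0.056), and without lymph node Id3+ eTR of mouse 84 the second was 0.40 ± 0.11 (adjusted p = 0.0522).

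In spleen the populations overlapped in Cd28, at 560 to 708 CPM in Id3- eTR, 481 to 593 CPM in Id3+ eTR and 553 to 590.4 CPM in Id3+ cTR. The spleen log2 fold change over Id3+ cTR was 0.12 for Id3- eTR, with a 95% interval of -0.10 to 0.33, and -0.06 for Id3+ eTR, with an interval of -0.27 to 0.16. Ctla4, the inhibitory CD28 family receptor encoded between the pair, was higher in Id3- eTR than in Id3+ cTR in both tissues, by 0.96 ± 0.10 in lymph node (adjusted p = 6.63e-06) and 0.52 ± 0.10 in spleen (adjusted p = 0.00243). It was named as a neighbour after its values were seen.

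Tnfrsf1b encodes TNFR2, a receptor of TNF that is typical of activated TR. In lymph node it had 400.1, 400.4 and 375 CPM in Id3- eTR, 219, 295 and 233 CPM in Id3+ eTR, and 69.3, 106 and 80.9 CPM in Id3+ cTR, in the order of mice 84, 86 and 87. The 3 lymph node populations did not overlap. Relative to Id3+ cTR the log2 fold change was 2.19 ± 0.40 for Id3- eTR (4.58-fold, adjusted p = 0.00114) and 1.54 ± 0.40 for Id3+ eTR (adjusted p = 0.0276). The call for Id3+ eTR was lost, with adjusted p between 0.0505 and 0.117, without any one of the 6 lymph node libraries of Id3+ eTR and Id3+ cTR. The difference between Id3- eTR and Id3+ eTR, 0.65 with a 95% interval of -0.15 to 1.45, was not called (adjusted p = 0.506). That interval rests on a spread estimated over all 18 libraries, the spleen ones included. Without the 3 spleen libraries that stood apart, the same lymph node difference was 0.65 ± 0.15.

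In spleen, 1 library moved the Id3+ eTR values of Tnfrsf1b. Id3- eTR had 326, 254 and 299 CPM, Id3+ eTR had 456, 114 and 139 CPM, and Id3+ cTR had 73.5, 38 and 90.6 CPM, in the order of mice 84, 86 and 87. Mouse 84 gave the highest value of the gene in any library in its Id3+ eTR, which is the library that stood farthest from its group. Id3- eTR exceeded Id3+ cTR by 2.15 ± 0.42 (4.43-fold, adjusted p = 0.00203), and kept that call in all 23 settings. Id3+ eTR exceeded Id3+ cTR by 1.84 ± 0.41 (adjusted p = 0.0173), which became 0.95 ± 0.26 (adjusted p = 0.0691) without that library. Id3- eTR and Id3+ eTR differed by 0.30 ± 0.38 (adjusted p = 0.755) with the library and by 1.22 ± 0.25 (adjusted p = 0.0129) without it. Leaving out spleen Id3+ cTR of mouse 84 or 86 also lost the call of Id3+ eTR over Id3+ cTR, at adjusted p of 0.0539 and 0.0629.

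**Figure D2:**
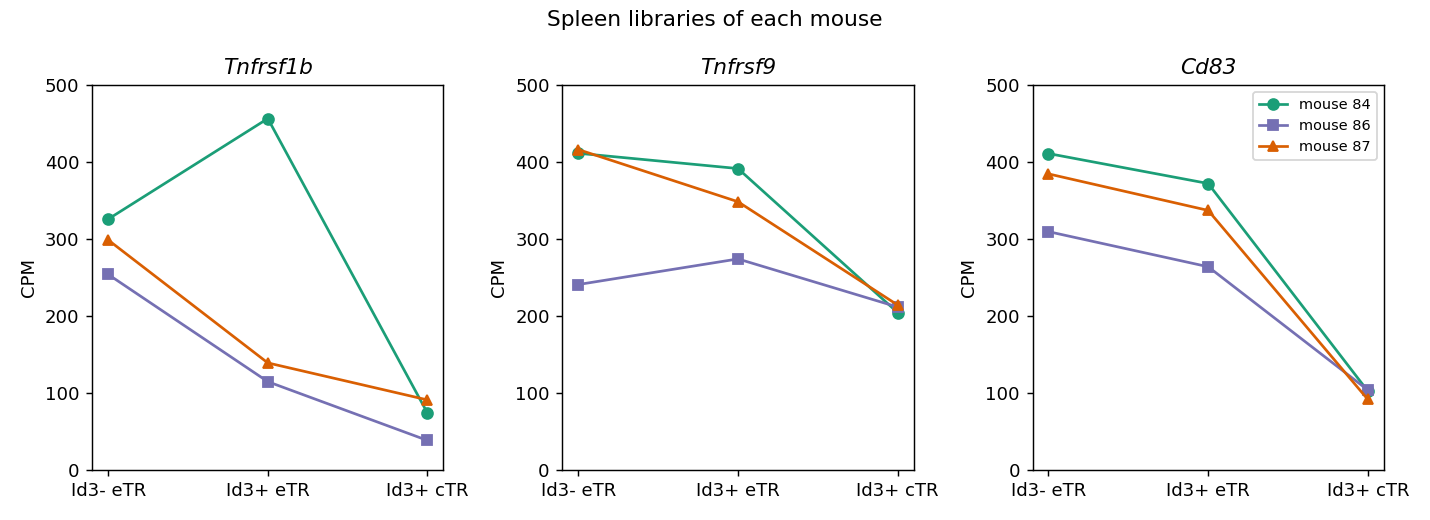
CPM of Tnfrsf1b, Tnfrsf9 and Cd83 in the 3 spleen populations, with a line for each mouse. Mouse 84 departs from the other two in Tnfrsf1b in Id3+ eTR (456 CPM, against 114 and 139 CPM), and mouse 86 has the lowest Tnfrsf9 and Cd83 in both effector populations.

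Tnfrsf8, the CD30 receptor encoded beside Tnfrsf1b, was the sparsest of the 8 and the one nearest to absence in Id3+ cTR. Lymph node libraries held 23, 18 and 30 counts in Id3- eTR, 37, 24 and 21 in Id3+ eTR, and 0, 0 and 1 in Id3+ cTR, in the order of mice 84, 86 and 87. Spleen libraries held 19, 9 and 30 counts in Id3- eTR, 43, 36 and 17 in Id3+ eTR, and 0, 1 and 0 in Id3+ cTR. No effector library overlapped with any central one. With 1 count over each Id3+ cTR group, the ratio of CPM to Id3+ cTR was 74.5 in lymph node Id3- eTR (95% counting interval 12.9 to 2980.0) and 91.9 in lymph node Id3+ eTR (16 to 3670.0). In spleen it was 42.2 for Id3- eTR (7.28 to 1700.0) and 67.8 for Id3+ eTR (11.9 to 2710.0). These intervals cover counting error only. All 4 differences were called, with adjusted p of 0.000289 and 0.000399 in lymph node and 0.00132 and 0.00166 in spleen, for Id3- eTR and Id3+ eTR in each tissue. Without the 3 libraries, which leaves the spleen Id3+ cTR library with the 1 count, the spleen adjusted p were 0.093 and 0.189. Between Id3- eTR and Id3+ eTR the fitted log2 difference was -0.37 in lymph node (95% interval -1.64 to 0.90) and -0.72 in spleen (-1.998 to 0.56), and neither was called.

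Tnfrsf9 encodes 4-1BB, a receptor that appears on T cells after antigen receptor signals. In lymph node it had 469.7, 431 and 429 CPM in Id3- eTR, 478, 412 and 364 CPM in Id3+ eTR, and 168, 163 and 223 CPM in Id3+ cTR, in the order of mice 84, 86 and 87. The effector libraries all lay above the central ones and overlapped with each other. The log2 fold change over Id3+ cTR was 1.26 ± 0.18 for Id3- eTR (2.4-fold, adjusted p = 0.000147) and 1.18 ± 0.18 for Id3+ eTR (adjusted p = 0.000702), and both calls were kept in all 23 settings.

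Spleen Tnfrsf9 showed a smaller and less stable difference. Id3- eTR had 411, 241 and 416 CPM, Id3+ eTR had 391, 274 and 348 CPM, and Id3+ cTR had 204, 211 and 214 CPM. Mouse 86 was lowest in both effector populations, but still above every central library. The log2 fold change over Id3+ cTR was 0.76 ± 0.18 for Id3- eTR (1.7-fold, adjusted p = 0.0107) and 0.69 ± 0.18 for Id3+ eTR (adjusted p = 0.0445). The first call was lost without Id3- eTR of mouse 84 (adjusted p = 0.0525) or of mouse 87 (adjusted p = 0.0569) and without the 3 libraries (adjusted p = 0.176). The second was lost in 11 of 23 settings, with adjusted p up to 0.646 without the 3 libraries. Between Id3- eTR and Id3+ eTR the 95% intervals of the log2 difference were -0.29 to 0.46 in lymph node and -0.30 to 0.46 in spleen.

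Tnfrsf4 (OX40) and Tnfrsf18 (GITR), both receptors that TR carry at rest, were already high in Id3+ cTR. Scaled by exon length, Id3+ cTR had 304 CPM per kilobase of Tnfrsf4 in lymph node and 322 in spleen, and 184 and 231 of Tnfrsf18. The other 6 genes lay between 0.0342 (Tnfrsf8) and 92.8 (Cd28) CPM per kilobase in the same cells. In lymph node, Tnfrsf4 had 646, 579 and 551 CPM in Id3- eTR, 648, 571 and 564 CPM in Id3+ eTR, and 455, 361 and 428 CPM in Id3+ cTR, in the order of mice 84, 86 and 87. The effector libraries all lay above the central ones. The log2 fold change over Id3+ cTR was 0.51 ± 0.14 for Id3- eTR (adjusted p = 0.0182) and 0.52 ± 0.14 for Id3+ eTR (adjusted p = 0.0305). The first call was lost without lymph node Id3- eTR of mouse 84 or lymph node Id3+ cTR of mouse 86, at adjusted p of 0.0764 and 0.0897. The second was lost without lymph node Id3+ eTR of mouse 84 or 86 or lymph node Id3+ cTR of mouse 86 or 87, at adjusted p of 0.0546 to 0.139.

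In spleen, Tnfrsf4 had 571, 573 and 529 CPM in Id3- eTR, 393, 421 and 474.5 CPM in Id3+ eTR, and 503, 327 and 488 CPM in Id3+ cTR. Spleen Id3- eTR lay above both other populations without overlap. Its log2 fold change over Id3+ cTR was 0.35 with a 95% interval of 0.06 to 0.64 (adjusted p = 0.117). DESeq2 called it (adjusted p = 0.0498). Without the 3 libraries the edgeR value was 0.77, but spleen Id3+ cTR was then mouse 86 alone, its lowest library at 327 CPM. With all 18 libraries, the log2 fold change of Id3- eTR over Id3+ eTR was 0.38, with an interval of 0.09 to 0.66 (adjusted p = 0.156). It was called without spleen Id3+ cTR of mouse 86 (adjusted p = 0.0469).

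Tnfrsf18 had 383, 366 and 350.1 CPM in lymph node Id3- eTR, 389, 325 and 327 CPM in lymph node Id3+ eTR, and 291, 261 and 288 CPM in lymph node Id3+ cTR. The effector libraries again lay above the central ones. The log2 fold change over Id3+ cTR was 0.39 ± 0.11 for Id3- eTR (adjusted p = 0.0292), and 0.31 ± 0.11 for Id3+ eTR, which was not called (adjusted p = 0.141). The Id3- eTR call was lost without Id3- eTR of mouse 84 or 86 or Id3+ cTR of mouse 86 or 87, at adjusted p of 0.059 to 0.111. Without the 3 spleen libraries, the Id3+ eTR difference in lymph node was called, at 0.31 ± 0.08 (adjusted p = 0.0359).

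In spleen the order of the populations was another: 352, 358 and 339 CPM in Id3- eTR, 245, 299 and 295 CPM in Id3+ eTR, and 353, 296 and 405 CPM in Id3+ cTR. The log2 fold change of Tnfrsf18 in spleen Id3- eTR over Id3+ cTR was -0.00, with a 95% interval of -0.24 to 0.23. That of Id3+ eTR over Id3+ cTR was -0.33, with an interval of -0.56 to -0.09 (adjusted p = 0.111), and it was called without Id3+ cTR of mouse 86, at -0.42 ± 0.11 (adjusted p = 0.0342). Exons of Tnfrsf18 overlap Gm16008, which had at most 56 counts in a library, and whether counting used the strand is not given.

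The values of Tnfrsf4 and Tnfrsf18 come with a limit of the counts. No gene passed 4706 counts in any library. Per library, the counts per kilobase of exon ran from 567 to 1204 for Tnfrsf4 and from 356 to 657 for Tnfrsf18. Within libraries, their median percentiles among tested genes were 99.9 and 99.2. Averaged over the libraries, the counts per kilobase of tested genes had a 99th percentile of 491 and a maximum of 1618. In single libraries, Icos reached 1020 and Cd28 316 counts per kilobase. Whether dense genes were compressed was not tested.

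Cd83 was higher in both effector populations in both tissues, by similar amounts. In lymph node it had 418, 443 and 385 CPM in Id3- eTR, 560.4, 379 and 401 CPM in Id3+ eTR, and 134, 95.9 and 132 CPM in Id3+ cTR, in the order of mice 84, 86 and 87. In spleen it had 411, 309 and 384 CPM in Id3- eTR, 372, 264 and 337 CPM in Id3+ eTR, and 102, 103 and 91.3 CPM in Id3+ cTR. The lowest effector library, spleen Id3+ eTR of mouse 86, lay above the highest central one in either tissue. Relative to Id3+ cTR the log2 fold change was 1.78 ± 0.17 for Id3- eTR (3.44-fold, adjusted p = 1.88e-06) and 1.89 ± 0.17 for Id3+ eTR (3.7-fold, adjusted p = 3.05e-06) in lymph node. In spleen it was 1.89 ± 0.18 for Id3- eTR (3.72-fold, adjusted p = 1.79e-06) and 1.71 ± 0.18 for Id3+ eTR (3.27-fold, adjusted p = 3.48e-05). All 4 calls were kept in all 23 settings. The log2 difference between Id3- eTR and Id3+ eTR was -0.10 in lymph node (95% interval -0.45 to 0.24) and 0.18 in spleen (-0.16 to 0.53).

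Because B cells and dendritic cells also express Cd83, their markers are given beside it. The 9 B cell markers summed to 866 to 887, 806 to 946 and 606 to 753 CPM per library in lymph node Id3- eTR, Id3+ eTR and Id3+ cTR. In spleen they summed to 822 to 890.0, 795 to 837 and 815 to 987 CPM. Ighm and Cd79b made up most of it. Pax5 was at 0 in Id3- eTR of both tissues. The 14 myeloid and dendritic cell markers summed to 282 to 338, 205 to 419 and 138 to 154 CPM in lymph node Id3- eTR, Id3+ eTR and Id3+ cTR, and to 216 to 260.0, 139 to 212 and 133 to 255 CPM in spleen. The dendritic cell gene Itgax was at 0 in all 3 lymph node groups and in spleen Id3+ eTR, and averaged 0.43 CPM in spleen Id3- eTR and 0.21 CPM in spleen Id3+ cTR. S100a8 was at 0 in all groups. Cst3, on the myeloid list, averaged 192 CPM in lymph node Id3- eTR and 132 CPM in lymph node Id3+ cTR, and was called higher there (0.54 ± 0.17, adjusted p = 0.0439), as was Ighm, at 736 and 556 CPM (0.41 ± 0.11, adjusted p = 0.0261). The median log2 fold change of the 7 B cell markers tested was -1.84 there and -1.04 in the same spleen comparison. For the 3 myeloid and dendritic cell markers tested it was 3.36 in lymph node, with a range of 0.535 to 3.79. In spleen it was 0.937, with a range of 0.171 to 2.64 and adjusted p of 0.156 or more. Cd79a was called lower in spleen Id3- eTR than in spleen Id3+ cTR (adjusted p = 0.0213). The 8 CD8 T and NK cell markers summed to 179 to 224, 153 to 239 and 59.9 to 105 CPM in lymph node Id3- eTR, Id3+ eTR and Id3+ cTR, and to 175 to 214, 103 to 134 and 78.7 to 172 CPM in spleen. Of them Nkg7 was called, higher in Id3- eTR than in Id3+ cTR by 2.68 ± 0.35 in lymph node (adjusted p = 4.6e-05) and 1.83 ± 0.34 in spleen (adjusted p = 0.00141). Lymph node Id3+ eTR exceeded Id3+ cTR in Nkg7 by 2.55 ± 0.35 (adjusted p = 0.000206). The 4 platelet markers summed to 9.38 to 31.3, 4.48 to 5.44 and 0 to 1.85 CPM in spleen, and to at most 3.46 CPM in a lymph node library. The sum of the 8 stromal and endothelial markers ran the other way, at 64.9 to 79.4, 116 to 152 and 201 to 292 CPM in lymph node Id3- eTR, Id3+ eTR and Id3+ cTR, and 76.6 to 111, 171 to 190.0 and 282 to 345 CPM in spleen. In Id3+ cTR of both tissues 7 of the 8 were at 0, so that sum was Pecam1 alone. Pecam1 was also the only 1 of them with enough counts to be tested. Its log2 fold change in Id3- eTR over Id3+ cTR was -1.89 in lymph node and -1.83 in spleen. Erythroid markers were highest in spleen Id3+ cTR, at 191 to 324 CPM, against 8 to 125 in spleen Id3- eTR and 5.44 to 142 in spleen Id3+ eTR. The part of these markers in the receptor results was not tested.

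**Figure D3:**
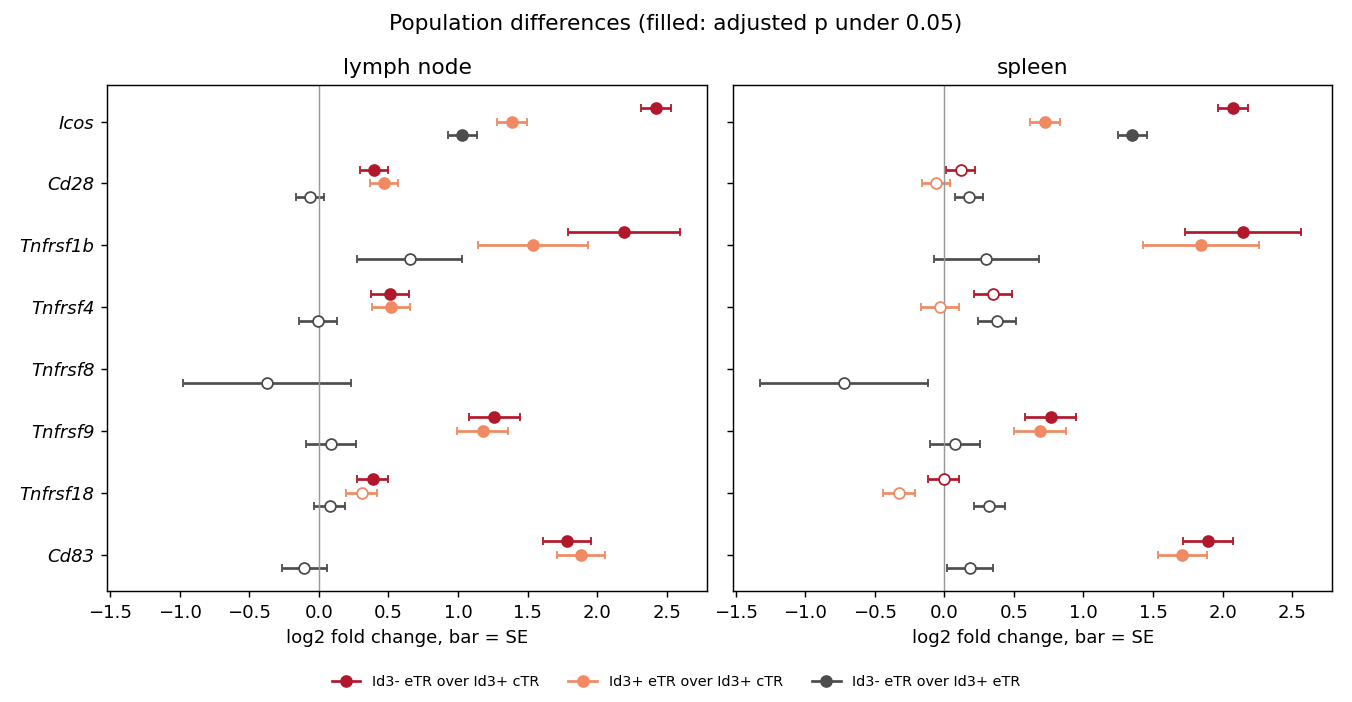
Log2 fold change (x axis, with SE) of each gene between populations in lymph node (left) and spleen (right); filled points have an adjusted p under 0.05. Tnfrsf8 over Id3+ cTR is left out because Id3+ cTR held 1 count per tissue. The difference between Id3- eTR and Id3+ eTR is filled for Icos alone, at 1.03 in lymph node and 1.35 in spleen.

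Between the tissues, no gene other than Icos was called in any population by edgeR. In Id3+ eTR the lymph node libraries of 5 genes (Icos, Cd28, Tnfrsf4, Tnfrsf18 and Cd83) lay above all spleen libraries, which 13.8% of all genes did in either direction. The log2 difference was 0.47 ± 0.14 for Tnfrsf4 (adjusted p = 0.182, and 0.0361 with DESeq2), 0.46 ± 0.16 for Cd83 (adjusted p = 0.286), 0.31 ± 0.11 for Tnfrsf18 (adjusted p = 0.291) and 0.28 ± 0.10 for Cd28 (adjusted p = 0.29). In Id3+ cTR the lymph node libraries of Cd28 and Tnfrsf18 lay below the spleen ones in all 3 mice, at -0.24 ± 0.10 (adjusted p = 0.556) and -0.33 ± 0.11 (adjusted p = 0.481). Of all genes, 14.6% lay apart in this comparison, in either direction. No member passed the test in Id3+ cTR by edgeR or DESeq2, and Icos, Cd28 and Tnfrsf18 had unadjusted p of 0.0159, 0.0282 and 0.0104, where 967 of 12445 genes were under 0.05.

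**Figure D4:**
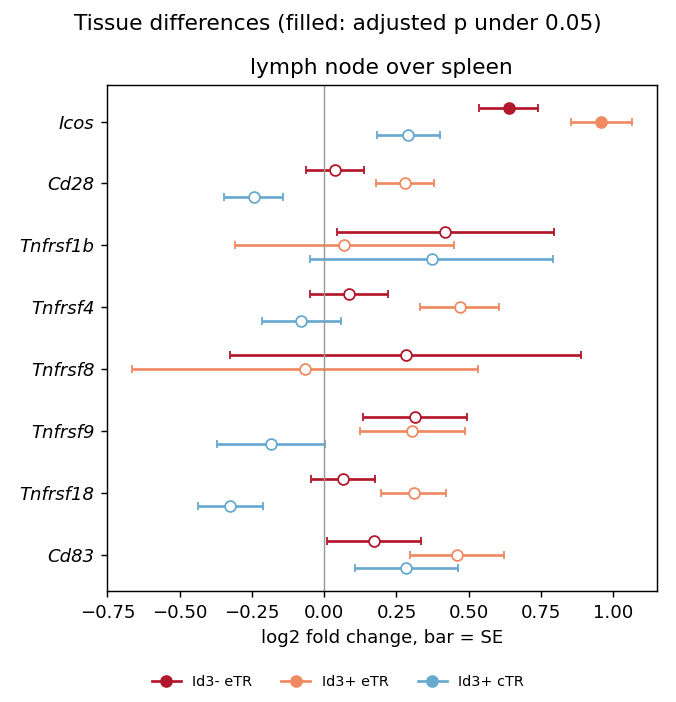
Log2 fold change of lymph node over spleen (x axis, with SE) for each gene in Id3- eTR, Id3+ eTR and Id3+ cTR; filled points have an adjusted p under 0.05, and Tnfrsf8 in Id3+ cTR is left out for its 1 count per tissue. Icos is filled in Id3- eTR (0.64) and Id3+ eTR (0.96), and Cd28, Tnfrsf4, Tnfrsf9 and Tnfrsf18 lie below 0 in Id3+ cTR without passing the test.

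The test of whether a population difference itself differed between the tissues called no member by edgeR. For Id3+ eTR over Id3+ cTR, where edgeR called 0% of all genes and 1180 had an unadjusted p under 0.05, the lymph node log2 difference exceeded the spleen one in every mouse for Icos by 0.67 ± 0.15 (adjusted p = 0.261), for Tnfrsf18 by 0.64 ± 0.16 (adjusted p = 0.327), for Tnfrsf4 by 0.55 ± 0.19 (adjusted p = 0.405), for Cd28 by 0.52 ± 0.14 (adjusted p = 0.36) and for Tnfrsf9 by 0.49 ± 0.26 (adjusted p = 0.571). DESeq2 called 66 genes there, Icos (adjusted p = 0.00223), Tnfrsf18 (adjusted p = 0.0128) and Cd28 (adjusted p = 0.0149) among them. For Id3- eTR over Id3+ cTR edgeR called 3 genes (0.0241%) and DESeq2 49, with 856 at an unadjusted p under 0.05. For Id3- eTR over Id3+ eTR edgeR called 0 and DESeq2 37, with 750 at an unadjusted p under 0.05. Neither tool called a member in these comparisons.

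Profiles over the 18 libraries, centred on each gene's mean, were compared by their mean absolute log2 difference, as a description. Within the 8 genes, Cd28 and Tnfrsf18 (0.119), Tnfrsf4 and Tnfrsf18 (0.13) and Cd28 and Tnfrsf4 (0.135) were nearest, and Tnfrsf8 was far from every other, at 0.761 or more. The neighbours Tnfrsf1b and Tnfrsf8 lay 0.843 apart and Icos and Cd28 lay 0.778 apart. Among 8881 candidate genes, Tnfsf9 was nearest to Icos (0.234, with a median over candidates of 0.936), then Id2 (0.255) and Cd200r1 (0.271). Itgb1 was nearest to Cd83 (0.148), Hacd3 to Tnfrsf9 (0.149), Timp2 to Tnfrsf1b (0.276) and Pdcd1 to Tnfrsf8 (0.506). Tspo was nearest to Tnfrsf18 (0.0447), Setd5 to Cd28 (0.0943) and Ndfip1 to Tnfrsf4 (0.0975). The libraries share their mice and depth.

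The counts of other genes of these pathways compare Id3- eTR with Id3+ cTR, where 8.26% of all genes were called higher and 4.68% lower in lymph node, and 7.17% higher and 5.09% lower in spleen. A share of a list near these is no result about the list. Of the ligands in the TNF family, 4 of 12 tested were higher and 1 lower in lymph node Id3- eTR than in Id3+ cTR, and 6 were higher and 2 lower in spleen. Tnfsf9, the ligand of the 4-1BB receptor, was higher by 1.92 ± 0.31 in lymph node (adjusted p = 0.000371) and 2.10 ± 0.32 in spleen (adjusted p = 0.000266). Tnfsf11, the ligand RANKL, was higher by 1.17 ± 0.34 in lymph node (adjusted p = 0.0308) and 2.31 ± 0.35 in spleen (adjusted p = 0.000244). Tnfsf14, the ligand LIGHT, had 1 count in lymph node Id3+ cTR and 3 in spleen Id3+ cTR, and Id3- eTR exceeded them by a ratio of 91.3 (95% counting interval 16 to 3650.0) in lymph node and 28.6 (9.56 to 141) in spleen. Tnfsf8, the ligand of CD30, was lower in both tissues, by -0.73 ± 0.15 in lymph node (adjusted p = 0.00378) and -0.60 ± 0.15 in spleen (adjusted p = 0.0157), while its receptor gene Tnfrsf8 was higher. It was named for that pairing after its values were seen.

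Of 14 other TNF receptors tested, 1 was higher and 1 lower in lymph node Id3- eTR than in Id3+ cTR, and 1 was higher and 2 lower in spleen. The higher one was Tnfrsf13b, the TACI receptor of BAFF and APRIL, at 0.57 ± 0.18 in lymph node (adjusted p = 0.0487) and 0.62 ± 0.19 in spleen (adjusted p = 0.0363). Fas, the death receptor, was lower, at -0.63 ± 0.16 in lymph node (adjusted p = 0.0166) and -1.14 ± 0.17 in spleen (adjusted p = 0.000192), and Relt was lower in spleen (-1.39 ± 0.41, adjusted p = 0.0347). Id3- eTR also had less Fas than Id3+ eTR, by -0.73 ± 0.16 in lymph node (adjusted p = 0.022) and -0.65 ± 0.17 in spleen (adjusted p = 0.0402).

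Among the 3 other CD28 family receptors, 2 were higher in each tissue in Id3- eTR than in Id3+ cTR, and Btla was lower in spleen (-0.57 ± 0.11, adjusted p = 0.00234). Pdcd1, the inhibitory receptor PD-1, was higher by 2.82 ± 0.32 in lymph node (adjusted p = 1.06e-05) and 2.95 ± 0.32 in spleen (adjusted p = 8.53e-06), and the second was Ctla4, given above. Of 5 B7 family ligands tested, 2 were higher in each tissue and none lower. Pdcd1lg2, a ligand of PD-1, was higher by 1.69 ± 0.33 in lymph node (adjusted p = 0.00189) and 1.66 ± 0.33 in spleen (adjusted p = 0.00248). Cd274, the other PD-1 ligand, was called in lymph node (0.55 ± 0.14, adjusted p = 0.0151), and Cd80, a ligand of CD28 and CTLA-4, in spleen (2.26 ± 0.62, adjusted p = 0.0231). Of 8 other costimulatory receptors, 2 were higher and 1 lower in each tissue. Slamf1, a receptor that binds itself between lymphocytes, was higher by 0.80 ± 0.13 in lymph node (adjusted p = 0.000332) and 0.70 ± 0.13 in spleen (adjusted p = 0.00137). Cd96 was lower by -0.54 ± 0.13 in lymph node (adjusted p = 0.00984) and -0.70 ± 0.13 in spleen (adjusted p = 0.00132), and Cd226, which shares a ligand with it, was higher in spleen (0.66 ± 0.20, adjusted p = 0.041).

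Of 13 TRAF adaptors and IAP ligases, 1 was lower in lymph node Id3- eTR than in Id3+ cTR, Map3k14, the kinase NIK of the alternative NF-kB pathway (-0.98 ± 0.28, adjusted p = 0.0258). In spleen the 13 genes had log2 fold changes of -0.77 to 0.283 and adjusted p of 0.0655 or more. The 5 NF-kB subunits had log2 fold changes of -0.168 to 0.571 in lymph node, with adjusted p of 0.217 or more, and of -0.455 to 0.856 in spleen, with adjusted p of 0.0511 or more. Of 11 NF-kB feedback inhibitors, 1 was higher and 1 lower in lymph node, and 2 were higher in spleen. Tnfaip3, the A20 enzyme that restrains NF-kB, was higher by 0.41 ± 0.13 in lymph node (adjusted p = 0.044) and 0.42 ± 0.13 in spleen (adjusted p = 0.0429). Nfkbie was higher in spleen (0.89 ± 0.23, adjusted p = 0.0176) and Nfkbiz lower in lymph node (-0.43 ± 0.12, adjusted p = 0.0198).

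Of 21 signal proteins of CD28 and ICOS, 1 was higher and 5 lower in lymph node Id3- eTR than in Id3+ cTR, and 2 were higher and 6 lower in spleen. Over all genes, 4.68% were called lower in lymph node and 5.09% in spleen. Malt1, a protease on the way from the antigen receptor and CD28 to NF-kB, was higher by 1.78 ± 0.21 in lymph node (adjusted p = 1.65e-05) and 1.46 ± 0.21 in spleen (adjusted p = 0.000157). Pik3ip1, an inhibitor of phosphoinositide 3-kinase, was lower by -0.91 ± 0.15 in lymph node (adjusted p = 0.000644) and -1.12 ± 0.16 in spleen (adjusted p = 0.000104). Pik3cd, the catalytic subunit of that kinase in lymphocytes, was also lower, by -0.77 ± 0.18 in lymph node (adjusted p = 0.00942) and -0.71 ± 0.18 in spleen (adjusted p = 0.0165).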

How the data were processed

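The authors deposited a table of whole-number counts per gene for 18 libraries (SMART-Seq v4 cDNA, modified Nextera XT) and a table of normalized signal for 14011 genes. In the second, 140 of 140 nonzero values of the 8 genes equalled the deposited count times 1 factor per library within 0.1%, so all results use the counts. Tools named in the submitters' processing notes are HTSeq 0.4.1, TopHat, Bowtie, SAMtools, Picard and FastQC; build, annotation and strand setting are not given in the sources used here. Symbols came from GENCODE M21 for 32919 identifiers, and the 5072 without one held 0.891% of counts.

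Genes were kept with filterByExpr (minimum count 10) and scaled by TMM. One edgeR 4.0.16 model in R 4.3.3 (limma 3.58.1) took all 18 libraries with 6 group terms (12 residual degrees of freedom), and its two-sided quasi-likelihood p-values received the Benjamini-Hochberg adjustment over 12445 genes. The fit was tested on simulated data. CPM use the TMM-scaled totals, and errors of fold changes are SE. Replicates are mice, so p-values measure the spread between littermates. Ratios against a group with 1 to 3 counts have exact conditional binomial intervals at 95%.

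Same-numbered libraries come from the same mouse by label. Their deviations from the group means correlated at -0.0309 to 0.0798 over 45 pairs (mean 0.02), against a mean of -0.01 over 90 pairs of different mice. Deviations cancel over the mice of a group, so the second mean largely follows from the first and is no separate comparison. Same-mouse pairs correlated at 0.0188 to 0.0798 within lymph node and at -0.029 to 0.079 within spleen. The mouse as a block was an alternative. The others were DESeq2 1.42.0, its size factors, no filter on low counts, each library left out, and, chosen after seeing the data, the 3 libraries that stood apart left out together.

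From each list, the text names up to 3 genes by the mean size of their change for Id3- eTR over Id3+ cTR, those called in both tissues before those called in 1. The 3 nearest profiles per gene were taken among genes whose mean log2 CPM (prior count 2) reached 3. The 8 genes and all lists were chosen with earlier results of these data known, so no p is adjusted over a list alone. Promoter sequences are those of RefSeq for GRCm38.p6.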

Additional observations from a re-analysis of the deposited data

How the results depend on the processing

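Of 29 calls among the 8 genes, 17 were kept in all 23 alternatives and none reversed. Without a filter on low counts, Tnfrsf1b in lymph node Id3+ eTR over Id3+ cTR was not called (adjusted p = 0.063), 62 genes against 36 differed between lymph node and spleen in Id3+ eTR, and 4 against 0 in the interaction of Id3- eTR over Id3+ eTR. DESeq2 called 1023 genes against 538 for spleen Id3+ eTR over Id3+ cTR, 735 against 408 for spleen Id3- eTR over Id3+ eTR, and 554 against 326 for the same in lymph node. For lymph node over spleen it called 145 against 38 in Id3- eTR, 195 against 36 in Id3+ eTR (2 of the 8 genes against 1) and 71 against 1 in Id3+ cTR. Its interactions had 49 against 3 for Id3- eTR over Id3+ cTR, 66 against 0 for Id3+ eTR over Id3+ cTR (3 of the 8 genes against 0) and 37 against 0 for Id3- eTR over Id3+ eTR. The replicate block (mouse) gave 2 genes against 1 in Id3+ cTR between the tissues and changed no call of the 8 genes.

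Without the 3 libraries, with fewer samples, 730 genes against 1526 were called for spleen Id3- eTR over Id3+ cTR, and 69 against 538 for spleen Id3+ eTR over Id3+ cTR (3 of the 8 against 5). Of the 8 genes, 2 against 1 were then called for Id3- eTR over Id3+ eTR in each tissue. Between the tissues 70 against 38 were called in Id3- eTR and 9 against 36 in Id3+ eTR, and 1 against 0 in the interaction of Id3- eTR over Id3+ eTR. Leaving out 1 library at a time, the genes called ran from 256 to 645 for spleen Id3+ eTR over Id3+ cTR (3 to 5 of the 8), 267 to 440.0 for spleen Id3- eTR over Id3+ eTR (1 to 2), 458 to 841 for lymph node Id3+ eTR over Id3+ cTR (4 to 7) and 192 to 443 for lymph node Id3- eTR over Id3+ eTR. Between the tissues the range for Id3- eTR was 15 to 62 (0 to 1 of the 8), for Id3+ eTR 5 to 46 and for Id3+ cTR 0 to 24, and in the interactions from 1 to 5, 0 to 1 and 0 to 5 for Id3- eTR over Id3+ cTR, Id3+ eTR over Id3+ cTR and Id3- eTR over Id3+ eTR. Except for fewer genes tested or fewer samples, the cause was not tested. With 3 mice per group, small differences such as those of Cd28, Tnfrsf4 and Tnfrsf18 lie near the limit of the test.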
